A study of Rattus norvegicus with 12 samples.

Results

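The uroplakins Upk1a, Upk1b, Upk2, Upk3a and Upk3b were measured in rat kidney after ischemia-reperfusion injury (IRI), and their members were taken as the array rows annotated with exactly 1 of these 5 symbols. Each gene had 1 such row, so 5 of 36685 rows and 5 of 18166 genes tested are described. The 12 arrays came from 12 animal codes in 4 groups of 3: anti-miR-182, an inhibitor of the microRNA miR-182, at day 7 after IRI, its placebo at that day, and the same pair of treatments at day 2. All groups shared the injury, and no uninjured kidney is among the arrays analysed here. Strain, age and dosing are not stated in the labels. The design text sets a treatment group against a control group, and the comparisons ask how far uroplakin RNA differed with treatment and with the day.

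Uroplakins are membrane proteins of the urothelium, the stretchable lining of the renal pelvis, ureter and bladder, which also covers the tip of the papilla inside the kidney. They assemble into rigid plaques on the surface of the umbrella cells that face the urine and keep water and solutes from leaking back. Upk1a and Upk1b are tetraspanins that pair in the endoplasmic reticulum with a partner chain before they leave it, Upk1a with Upk2 and Upk1b with Upk3a or Upk3b. In a piece of kidney these genes report how much pelvic lining was taken along as well as their expression in it, and in bulk RNA fewer cells of a type and less RNA per cell cannot be told apart. Defining kidney markers were measured on all 12 arrays. On a log2 scale Umod, the uromodulin gene of the thick ascending limb, had signals of 11.19 to 11.95, and Slc34a1, the phosphate transporter of the proximal tubule, 9.28 to 10.5. Array values are relative, so the signal of 1 gene is not set against that of another, and no detection call per array was used to decide whether a low uroplakin signal lay above background.

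In the RefSeq rat assembly GRCr8 the 5 genes lie on 5 chromosomes, Upk1a on chromosome 1 (94987110 to 94998083), Upk1b on chromosome 11 (75459244 to 75496579), Upk2 on chromosome 8 (53675994 to 53677986), Upk3a on chromosome 7 (118008898 to 118019865) and Upk3b on chromosome 12 (26266838 to 26274240). The RefSeq table held promoter windows for 4 of the 5, all but Upk2. The bases just before the annotated genes are shown for Upk1b, the uroplakin with the widest spread between animals, and for Upk3b, the uroplakin that passed the adjusted threshold with time, since the levels of these partners did not go together. The Upk1b sequence is chr11:75459131-75459243 on the plus strand and the Upk3b sequence is chr12:26274241-26274490 on the minus strand, 113 and 250 bases.
Upk1b: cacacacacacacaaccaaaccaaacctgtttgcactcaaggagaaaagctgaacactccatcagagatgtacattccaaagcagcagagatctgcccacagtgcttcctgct
Upk3b: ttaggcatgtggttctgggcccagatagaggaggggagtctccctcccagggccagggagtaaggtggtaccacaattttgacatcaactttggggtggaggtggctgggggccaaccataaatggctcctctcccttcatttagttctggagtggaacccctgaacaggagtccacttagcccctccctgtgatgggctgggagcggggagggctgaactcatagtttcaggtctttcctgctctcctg
Both are in lower case throughout because none of the 6 motifs searched on both strands was found in them, nor in the rest of the 250-base windows that the RefSeq promoter table places before a start of Upk1a, Upk1b, Upk3a and Upk3b. For Upk1a and Upk3a the whole window lay inside the gene as annotated, and for Upk1b all but the 113 bases shown did. The motifs were TATAAA, present in 13.1% of 27457 windows of the same length, GATAAG in 6.07%, AACCGG in 5.82%, TGTTTAC in 3.25%, AGGTCA in 13.7% and GGAAGT in 19.5%. Absence of these letters says nothing about a factor. The 4 windows had a GC content of 54.8% to 61.2%.

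At day 7 the tetraspanins Upk1a and Upk1b were high in 2 of the 3 placebo animals and low in the third, while all 3 anti-miR-182 animals were low. Upk1b had log2 signals of 5.41, 5.47 and 5.58 under anti-miR-182, against 7.17, 7.33 and 5.06 under placebo. Placebo replicates 1 and 2 stood above every other array of the series, and placebo replicate 3 had the lowest Upk1b signal of the 12. The group means were 5.49 ± 0.088 in treated animals and 6.52 ± 1.27 in placebo animals (SD, n = 3 each). Upk1b is known from the corneal epithelium as well as from the urothelium. The difference, anti-miR-182 minus placebo, was -1.03 ± 0.41 (SE) on the log2 scale, a fold of 0.489, with an unadjusted p of 0.0259 and an adjusted p of 0.999 in limma, Benjamini-Hochberg over all genes. The spread of Upk1b over the placebo arrays at day 7 was larger than that of 99.9% of all genes, whereas under anti-miR-182 it was larger than that of 26.4%.

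Upk1a, a receptor for type 1 pili of uropathogenic bacteria, split the same animals. Its log2 signals at day 7 were 5.27, 5.02 and 5.31 under anti-miR-182, against 6.15, 6.10 and 5.12 under placebo. The same placebo animals were high, and the groups overlapped through placebo replicate 3. The means were 5.20 ± 0.16 in treated animals and 5.79 ± 0.58 in placebo animals (SD, n = 3 each), a log2 difference of -0.59 ± 0.22 (SE) with an unadjusted p of 0.0179 and an adjusted p of 0.999 in limma. The placebo spread of Upk1a exceeded that of 98.5% of genes.

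**Figure D1:**
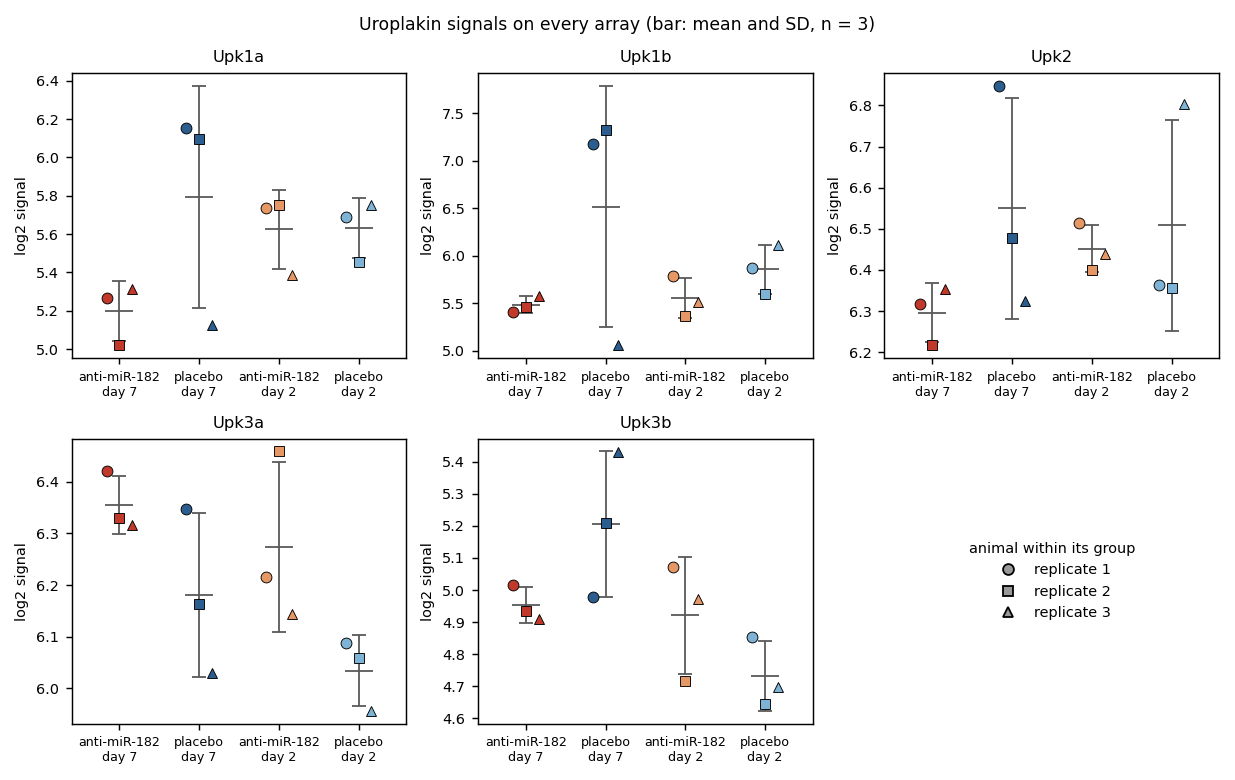
Log2 signal of each uroplakin (vertical axes) on every array in the 4 groups (horizontal axes, 1 panel a gene), with symbols for the animal within its group and bars for the mean and SD. Upk1b at 7.17 and 7.33 and Upk1a at 6.15 and 6.10 in placebo replicates 1 and 2 at day 7 stand above the other 10 arrays.

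The partner chain Upk2, which is joined to Upk1a and is among the most urothelium-specific of the family, differed less. At day 7 it had log2 signals of 6.32, 6.22 and 6.35 under anti-miR-182, against 6.85, 6.48 and 6.32 under placebo. Only placebo replicate 1 stood clearly apart, and the groups overlapped. The log2 difference was -0.25 ± 0.15 (SE, adjusted p = 0.999 in limma).

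Upk3a, the chain with a cytoplasmic tail that completes the plaque with Upk1b, did not follow its partner. Its log2 signals at day 7 were 6.42, 6.33 and 6.32 under anti-miR-182, against 6.35, 6.16 and 6.03 under placebo. The log2 difference was 0.18 ± 0.12 (SE, adjusted p = 0.999 in limma), of the opposite sign to that of Upk1b, and the groups overlapped.

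Upk3b, a relative of Upk3a that is also known as a mesothelial gene in mouse, did not divide the placebo animals as Upk1b did. At day 7 it had log2 signals of 5.02, 4.93 and 4.91 under anti-miR-182, against 4.98, 5.21 and 5.43 under placebo. Its highest value on any array was in placebo replicate 3, the animal with the lowest Upk1b. The log2 difference was -0.25 ± 0.13 (SE, adjusted p = 0.999 in limma).

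Of the 5 uroplakins 4 had a lower mean under anti-miR-182 at day 7, where 50.2% of all genes did. Of the 5, 0 passed an adjusted p of 0.05 in limma, as did 0 of all genes (0.0%). At an unadjusted p under 0.05 there were 2 of 5, Upk1a and Upk1b, beside 3.26% of all genes. With day 7 fitted alone the SE was 0.51 for Upk1b and 0.25 for Upk1a. The unadjusted p in that fit was 0.0726 for Upk1b and 0.0454 for Upk1a (limma). For 0 of 5 did all anti-miR-182 arrays lie below all placebo arrays, which 3.75% of genes did. The result depended on which array was left out. Without placebo replicate 3 the Upk1b difference was -1.76 ± 0.16 (SE, adjusted p = 0.000655 in limma), with 3 of 18166 genes passing. Without placebo replicate 1 it was -0.71 and without placebo replicate 2 -0.63, neither passing. The unadjusted p was then 0.125 and 0.146 in that order (limma). For Upk1a the difference without placebo replicate 3 was -0.93 (adjusted p = 0.154 in limma).

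**Figure D2:**
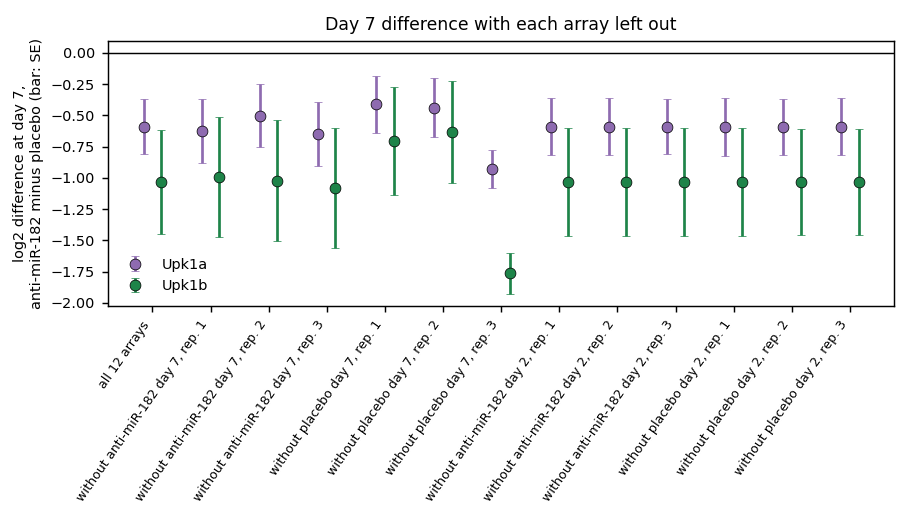
Log2 difference at day 7, anti-miR-182 minus placebo (vertical axis, bars are SE), for Upk1a and Upk1b with all 12 arrays and with each array left out (horizontal axis). Upk1b ran from -1.76 without placebo replicate 3 to -0.63 without placebo replicate 2.

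At day 2 no such split between animals was seen. The spread over the placebo arrays of day 2 still exceeded that of 92.2% of genes for Upk1b and of 92.0% for Upk2. Upk1b had log2 signals of 5.79, 5.37 and 5.52 under anti-miR-182, against 5.87, 5.60 and 6.11 under placebo, with overlapping groups. The difference was -0.30 ± 0.41 (SE, adjusted p = 0.917 in limma). This SE comes from 1 spread shared by the 4 groups, and the Upk1b SD was 1.27 in placebo at day 7. With day 2 fitted alone the SE was 0.16 (unadjusted p = 0.0905, adjusted p = 0.799 in limma). Upk1a had 5.73, 5.75 and 5.38 under anti-miR-182, against 5.69, 5.45 and 5.75 under placebo, a difference of -0.0065 ± 0.22 (SE, adjusted p = 0.997 in limma). The treatment groups overlapped for Upk1a as well. Upk2 had 6.51, 6.40 and 6.44 under anti-miR-182, against 6.36, 6.36 and 6.80 under placebo, where replicate 3 alone was high. Upk3b had 5.07, 4.72 and 4.97 under anti-miR-182, against 4.85, 4.64 and 4.70 under placebo. The differences were -0.06 ± 0.15 for Upk2 and 0.19 ± 0.13 for Upk3b (SE), neither passing.

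Upk3a was the 1 uroplakin whose groups did not overlap at day 2. Its log2 signals were 6.22, 6.46 and 6.14 under anti-miR-182, against 6.09, 6.06 and 5.96 under placebo, so that 1 of 5 uroplakins had all anti-miR-182 arrays above all placebo arrays, beside 8.06% of all genes. The difference of 0.24 ± 0.12 (SE) had an unadjusted p of 0.0614 and an adjusted p of 0.761 in limma. Of the 5 genes 0 passed at the adjusted threshold (0.0% of all genes) and 0 at an unadjusted p under 0.05 (6.61% of all genes).

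**Figure D3:**
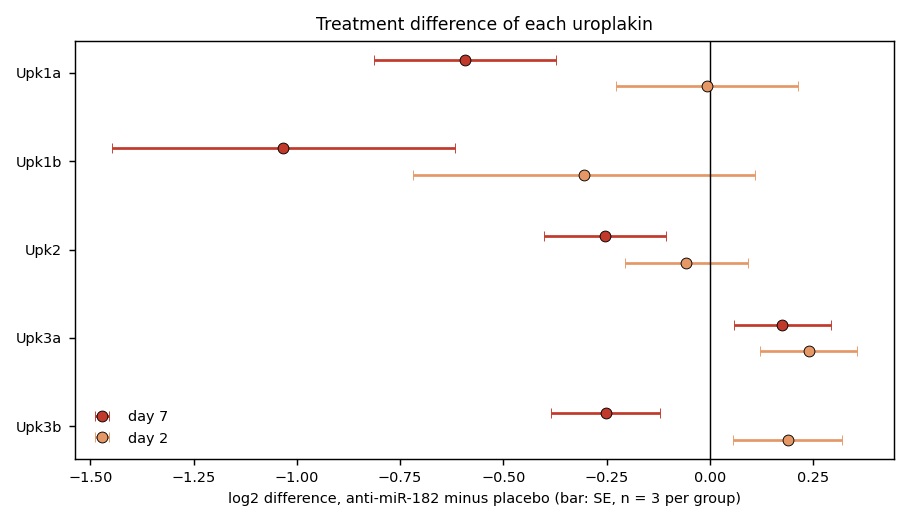
Log2 difference of each uroplakin (vertical axis), anti-miR-182 minus placebo (horizontal axis, bars are SE, n = 3 per group), at day 7 and day 2. Upk1b at -1.03 and Upk1a at -0.59 at day 7 lie farthest from 0, and the Upk3a differences, 0.18 at day 7 and 0.24 at day 2, lie above 0.

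Whether the treatment difference itself changed between days was tested as an interaction, the day 7 difference minus the day 2 difference. It was below 0 for all 5 uroplakins, where 55.5% of all genes were below 0 and the median gene stood at -0.027. The values were -0.59 ± 0.31 for Upk1a, -0.73 ± 0.59 for Upk1b, -0.20 ± 0.21 for Upk2, -0.06 ± 0.17 for Upk3a and -0.44 ± 0.19 for Upk3b (SE). In limma 0 of 5 passed the adjusted threshold (0.0% of all genes) and 1 of 5, Upk3b with an unadjusted p of 0.0336, passed unadjusted (3.92% of all genes). A treatment difference particular to a day was therefore not shown for any uroplakin.

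Over time Upk3b, which was among the dimmest 25% of genes by mean signal, rose under placebo. Its mean was 5.21 ± 0.23 at day 7 and 4.73 ± 0.11 at day 2 (SD, n = 3 each), with each day 7 array above each day 2 array. The log2 difference was 0.47 ± 0.13 (SE), a fold of 1.39, with an adjusted p of 0.0183 in limma. It was the 1 of 5 uroplakins that passed, where 28.0% of all genes passed, and the 1 of 5 whose day 7 arrays all lay above the day 2 arrays, as 8.38% of genes did. The call was lost without placebo day 7 replicate 3 (0.36, adjusted p = 0.0749), without placebo day 2 replicate 2 (0.43, adjusted p = 0.0691) and without placebo day 2 replicate 3 (0.46, adjusted p = 0.0576, all in limma). It was also lost with the animal number above or below 90 as a covariate (0.34, adjusted p = 0.14 in limma). Every day 2 animal had a number above 90 and most day 7 animals did not, so this covariate overlaps with day. Under anti-miR-182 the Upk3b means were 4.95 ± 0.06 at day 7 and 4.92 ± 0.18 at day 2 (SD, n = 3 each).

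The other members did not pass between days. Under placebo the log2 differences, day 7 minus day 2, were 0.66 ± 0.41 for Upk1b, 0.16 for Upk1a, 0.04 for Upk2 and 0.15 ± 0.12 for Upk3a (SE). Without placebo day 7 replicate 3, the array that lacked the high tetraspanin signals, Upk1b (1.39, adjusted p = 0.000522 in limma) and Upk1a (0.50, adjusted p = 0.0348 in limma) passed. Neither passed when placebo day 7 replicate 1 or 2 was left out. In that order Upk1b was then 0.33 and 0.25, and Upk1a -0.020 and 0.0081 (adjusted p of 0.613 to 0.985 in limma). Under anti-miR-182, where 27.5% of all genes passed, 0 of 5 uroplakins did in limma, and 0 had an unadjusted p under 0.05. Upk1a was nearest, at 5.20 ± 0.16 at day 7 and 5.62 ± 0.21 at day 2 (SD, n = 3 each), with an adjusted p of 0.162 in limma, which was 0.0338 without placebo day 7 replicate 3. All day 7 arrays lay below all day 2 arrays for 2 of 5 genes, Upk1a and Upk2, as for 35.0% of genes. The array medians were 5.84 to 5.93 at day 7 and 5.98 to 6.10 at day 2, and the median gene differed by -0.21 under anti-miR-182 and -0.18 under placebo between days. Day and a separate normalization run cannot be told apart, so each time difference is best read beside these shifts. Centring each array on its median gave 0.62 for Upk3b under placebo (adjusted p = 0.0069 in limma).

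Ordered by group mean, Upk1b was highest in placebo at day 7 (6.52), followed by placebo at day 2 (5.86), the day 2 animals given anti-miR-182 (5.56) and the day 7 animals given it (5.49), and each neighbouring pair overlapped. Upk1a ran from placebo at day 7 (5.79) through placebo at day 2 (5.63) and the day 2 animals given anti-miR-182 (5.62) to the day 7 animals given it (5.20). For Upk1a the lowest group lay below the next on every array, and the other neighbours overlapped. Upk2 had the same order, with means of 6.55, 6.51, 6.45 and 6.30, and again the lowest group alone lay apart from its neighbour. The order differed for Upk3a and Upk3b. Upk3a was highest under anti-miR-182, with 6.36 at day 7 and 6.27 at day 2, and then under placebo, with 6.18 at day 7 and 6.03 at day 2. Upk3b was highest in placebo at day 7 (5.21) and lowest in placebo at day 2 (4.73), with the animals given anti-miR-182 between them (4.95 at day 7 and 4.92 at day 2). Neighbours in the order overlapped for Upk3a and Upk3b.

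The 10 pairs of uroplakins were correlated over the 12 arrays on values centred on their day, with animals permuted within days (permutation test, 100000 resamples, two-sided). By Pearson r 3 pairs passed after Benjamini-Hochberg adjustment over the 10: Upk1a with Upk1b (adjusted p = 0.0344), Upk1a with Upk2 (adjusted p = 0.0235) and Upk1b with Upk2 (adjusted p = 0.0344, permutation tests). By Spearman rho 0 passed, with rho of 0.82, 0.68 and 0.63 for these pairs (adjusted p = 0.119 each, permutation tests). Because placebo day 7 replicates 1 and 2 stood apart, r is given for the other 10 arrays, where it was 0.76, 0.60 and 0.65 for these pairs. Over the 6 arrays of day 7 r was 0.97, 0.87 and 0.79, and over the 6 arrays of day 2 it was 0.41, 0.41 and 0.72. The other 7 pairs, all with Upk3a or Upk3b, had r of -0.37 to 0.07 and adjusted p of 0.636 to 0.973 (permutation tests). Over the day 7 arrays their r ran from -0.91 for Upk3a with Upk3b to 0.12 for Upk2 with Upk3a. Over the day 2 arrays it ran from -0.76 for Upk1b with Upk3a to 0.25 for Upk1a with Upk3a. When values were centred on the 4 group means in place of the days, 1 pair passed by Pearson r, Upk1a with Upk1b (adjusted p = 0.0237), and Upk1a with Upk2 (adjusted p = 0.0972) and Upk1b with Upk2 (adjusted p = 0.109, permutation tests) did not. The other 7 pairs did not pass with this centring either. Their r ran from -0.72 for Upk3a with Upk3b (adjusted p = 0.0675) to 0.62 for Upk1a with Upk3a (adjusted p = 0.0972, permutation tests). A joint pattern of all 5 genes was not shown.

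The genes most like the uroplakins were sought by r with the mean of the 5 uroplakins over the 12 day-centred arrays. The search left out the 5 uroplakins and uncharacterised loci, here and for each member taken singly. Values were not scaled, so Upk1b, with the widest spread, weighed most in the mean. The 10 highest were Krt15 (0.95), Lypd2 (0.93), Slc14a2 (0.92), Cbln1 (0.87), Nmt1 (0.87), Defb40 (0.87), Cdkn1c (0.86), Ccdc150 (0.86), Nipal1 (0.85) and Ptpn3 (0.83). These are the highest of all values searched, they rest largely on placebo day 7 replicates 1 and 2, and they carry no test. Krt15, a basal-cell keratin of stratified epithelia, had log2 signals at day 7 of 5.27, 5.30 and 5.04 under anti-miR-182, against 7.03, 6.95 and 5.38 under placebo. It divided the placebo animals as Upk1b did, though its groups did not overlap. Its difference was -1.25 ± 0.31 (SE, unadjusted p = 0.00125, adjusted p = 0.999 in limma). Lypd2 had 5.86, 5.80 and 6.04 under anti-miR-182, against 6.71, 6.65 and 5.76 under placebo.

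Taken singly, the members had different neighbours. Upk1a was most like Lypd2 (0.93), Krt15 (0.93) and Cdkn1c (0.88), and Upk1b was most like Defb40 (0.92), Slc14a2 (0.92) and Krt15 (0.91). Upk2 was most like Sprr1a (0.91), a cornified envelope gene, followed by Msc (0.89) and Slc25a12 (0.86). Sprr1a had log2 signals at day 7 of 5.81, 6.12 and 5.89 under anti-miR-182, against 7.29, 6.33 and 5.999 under placebo, highest on the array where Upk2 was highest. Upk3a was most like Stoml1 (0.95), Pih1d1 (0.92) and Znrf4 (0.91), and Upk3b was most like Lims2 (0.94), Nos3 (0.92) and Mir190 (0.91). Krt15, Lypd2, Slc14a2, Defb40 and Cdkn1c were among the neighbours of the mean and of a tetraspanin. None of the neighbours of Upk2, Upk3a or Upk3b was among those of the mean, in which Upk1b weighed most.

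**Figure D4:**
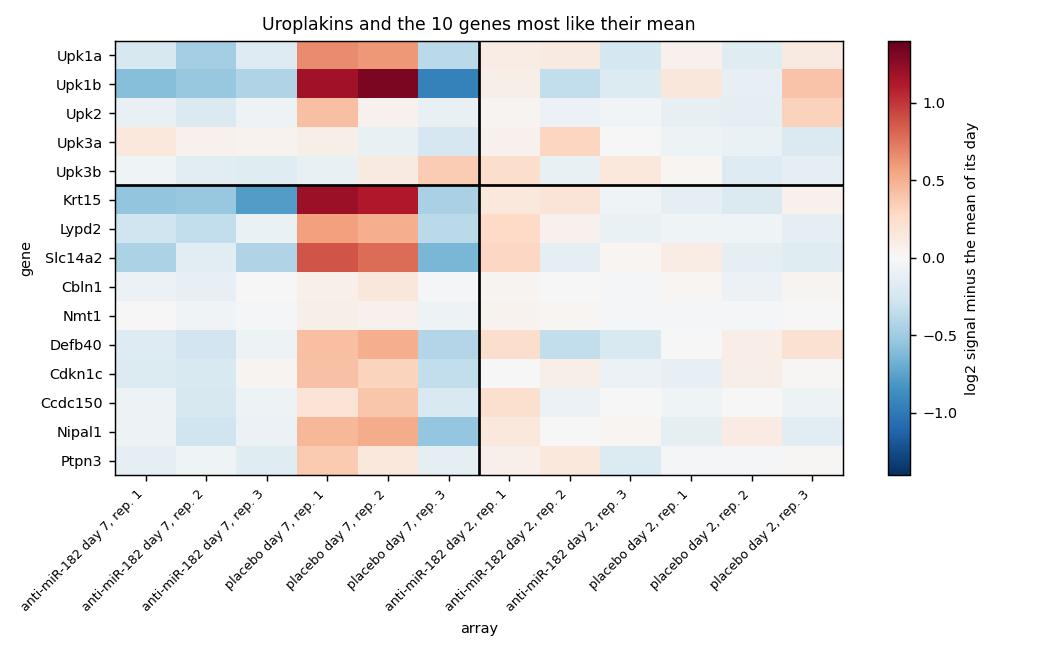
Log2 signal minus the mean of its day (colour) for the 5 uroplakins and the 10 genes most like their mean (vertical axis) on the 12 arrays (horizontal axis), day 7 left of the vertical line. Upk1a, Upk1b, Krt15 and Slc14a2 are high on placebo day 7 replicates 1 and 2, and Upk3a and Upk3b do not share this.

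Other urothelial genes were read from lists chosen with earlier results of these data known. Of 9 measured urothelial keratins 8 had a lower day 7 mean in treated animals, with a median log2 difference of -0.19, where 50.2% of all genes were lower and the median gene stood at -0.00078. In limma 0 of 9 passed the adjusted threshold. Krt14, a basal-cell keratin, had 5.68, 5.33 and 5.20 under anti-miR-182, against 5.87, 5.88 and 5.85 under placebo, with groups apart. Its differences were -0.46 ± 0.15 at day 7 and -0.40 ± 0.15 at day 2 (SE, adjusted p = 0.999 and 0.718 in limma), and Krt19 had -0.32 ± 0.17 at day 7 (adjusted p = 0.999 in limma). At day 2 the keratins had 5 of 9 lower and a median of -0.11, where 41.3% of all genes were lower.

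Of 9 transcription factors of urothelial differentiation 8 were lower by mean at day 7, with a median of -0.097 and 0 passing in limma. That median was -0.22 without anti-miR-182 replicate 3, -0.15 without anti-miR-182 replicate 2 and -0.18 without placebo replicate 3. It was -0.091 without anti-miR-182 replicate 1, -0.070 without placebo replicate 1 and -0.095 without placebo replicate 2. The exception was Ovol1, a repressor that maintains epithelial identity, at 0.39 ± 0.14 with its groups apart (SE, adjusted p = 0.999 in limma). Gata3, a factor of urothelium and collecting duct, had 6.83, 6.90 and 6.84 under anti-miR-182, against 7.34, 7.42 and 6.57 under placebo, and so also divided the placebo animals. Not every factor did so: Klf5 had 7.12, 6.88 and 7.48 under anti-miR-182, against 7.29, 7.28 and 7.50 under placebo. Among the placebo arrays of day 7 Klf5, Foxa1 and Tp63 were each highest in replicate 3. Genes of uroplakin vesicle traffic (5 of 8 lower, median -0.029) and other surface and junction genes (5 of 8 lower, median -0.040) lay near the median of all genes. Both medians changed sign with 1 array left out, to 0.058 for traffic genes without anti-miR-182 replicate 1 and to 0.027 for surface genes without placebo replicate 1, and were -0.098 and -0.11 without placebo replicate 3. Psca, a surface marker of urothelium, had 5.80, 5.79 and 5.65 under anti-miR-182, against 6.62, 5.66 and 5.05 under placebo, high in replicate 1 and not in replicate 2.

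With time, keratins passed in both directions under placebo and in 1 direction under anti-miR-182. Of all genes 2.68% rose and 24.9% fell under anti-miR-182, and 4.22% rose and 23.7% fell under placebo, so that falls made up most calls among all genes too. Under placebo 4 of 9 keratins passed in limma: Krt15 rose by 1.29 ± 0.31 (SE, adjusted p = 0.00888), and Krt14 (-0.62), Krt8 (-0.55) and Krt13 (-0.45) fell. Under anti-miR-182 Krt8 (-0.82), Krt14 (-0.68), Krt13 (-0.56) and Krt17 (-0.39) fell, and 0 rose. Under median centring 2 keratins still passed in each group, Krt14 and Krt15 under placebo and Krt8 and Krt14 under anti-miR-182. Krt8 is also expressed in simple epithelia of the tubules.

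The transcription factors that passed rose with time, 2 of 9 under anti-miR-182 and 3 of 9 under placebo, beside 2.68% and 4.22% of all genes in that order. Under anti-miR-182 they were Klf5 (0.60) and Foxa1 (0.47), and under placebo Foxa1 (0.84), Pparg (0.58) and Klf5 (0.56). Pparg, a nuclear receptor of umbrella cell differentiation, and Foxa1, a forkhead factor, act upstream of uroplakin genes in mouse urothelium. Under median centring 3 of 9 rose under anti-miR-182 and 5 of 9 under placebo, and none fell. Of the traffic genes 4 of 8 fell under anti-miR-182, led by Rab8a (-0.71), a small GTPase of apical transport, and under placebo 5 fell, among them Rab8a (-0.54), Myo5b (-0.53) and Rab11a (-0.48), while Sytl2 (0.42) rose. Of all genes 24.9% fell under anti-miR-182 and 23.7% under placebo. Under median centring 1 traffic gene fell under anti-miR-182 and 2 under placebo, and with quantile normalization 1 fell under anti-miR-182 and 0 under placebo. Of 8 other surface and junction genes 3 passed in each treatment group, where 27.5% of all genes passed under anti-miR-182 and 28.0% under placebo. Perp, a desmosomal protein of stratified epithelia, fell by 0.56 under anti-miR-182 and by 0.82 under placebo, and the cadherin Cdh1 fell by 0.44 under anti-miR-182 and by 0.47 under placebo. Under both other scalings Perp passed under placebo alone, and Cdh1 in neither treatment group. Upk3bl1, a uroplakin 3b-like gene outside the 5, rose in both groups. Its log2 signals at day 7 were 7.54, 7.68 and 7.81 under anti-miR-182 and 7.70, 7.75 and 7.72 under placebo, and at day 2 they were 6.84, 6.92 and 6.91 under anti-miR-182 and 7.02, 6.51 and 6.93 under placebo. The differences, day 7 minus day 2, were 0.79 ± 0.13 under anti-miR-182 and 0.91 ± 0.13 under placebo (SE, adjusted p = 0.00132 and 0.000506 in limma), and days did not overlap in either group.

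Several markers of the neighbouring inner medulla and papilla were high in the same placebo animals as the tetraspanins at day 7. All 8 measured markers had a lower mean under anti-miR-182, where 50.2% of all genes did. Their median log2 difference was -0.40, which was -0.18 without placebo replicate 1, -0.36 without placebo replicate 2 and -0.58 without placebo replicate 3. The mean signal of the list was 7.03, 7.23 and 7.13 under anti-miR-182, against 7.83, 7.69 and 7.08 under placebo. The list was highest in placebo replicates 1 and 2, as Upk1b was. Slc14a2, a urea transporter of the inner medullary collecting duct, had 5.89, 6.17 and 5.90 under anti-miR-182, against 7.20, 7.10 and 5.68 under placebo, and Fxyd4, a collecting duct regulator of the sodium pump, had 8.36, 8.72 and 8.77 under anti-miR-182, against 10.05, 9.34 and 7.99 under placebo. Aqp4, a basolateral water channel, had 7.16, 7.09 and 7.64 under anti-miR-182, against 8.14, 8.83 and 7.51 under placebo. Not every marker did so: the sodium channel subunit Scnn1b had 7.10, 7.07 and 6.98 under anti-miR-182, against 7.13, 7.08 and 7.10 under placebo, and the bradykinin receptor Bdkrb2 had 5.56, 6.0004 and 5.47 under anti-miR-182, against 5.78, 5.88 and 5.77 under placebo. The adjusted p at day 7 was 0.999 in limma for each of the 8 markers. At day 2 only 1 of the 8 had a lower mean under anti-miR-182, where 41.3% of all genes did. The median of the list was then 0.11, and the Upk1b difference was -0.30. The part of the papilla in the uroplakin difference was not tested.

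Of the 6 measured defining urothelial markers 4 are uroplakins, so their list is not independent of the uroplakins. Its mean signals at day 7 were 5.62, 5.61 and 5.60 under anti-miR-182, against 6.32, 6.10 and 5.41 under placebo. The urothelial keratins had 6.21, 6.20 and 6.14 under anti-miR-182, against 6.59, 6.57 and 6.30 under placebo. Among the day 7 arrays both lists were highest in placebo replicates 1 and 2. At day 2 the keratin list reached 6.61 under anti-miR-182 and 6.58 under placebo, so its day 7 placebo level was not the highest of the series. In the lists for proximal tubule, podocyte, smooth muscle, fat and mesothelium placebo replicates 1 and 2 at day 7 did not both lie above all anti-miR-182 arrays of that day. Of the 8 cortical proximal tubule markers 1 was lower by mean under anti-miR-182, with a median log2 difference of 0.30 that was 0.097 without anti-miR-182 replicate 1, 0.15 without replicate 2 and 0.61 without replicate 3. Their mean signal was 10.38, 10.24 and 9.23 under anti-miR-182, against 9.65, 9.84 and 9.69 under placebo. The 3 podocyte markers measured had 0 lower and a median of 0.26, which was 0.11 without anti-miR-182 replicate 1, 0.13 without replicate 2 and 0.43 without replicate 3. Smooth muscle of the pelvic wall and vessels ran from 6.64 to 6.77 under anti-miR-182 and from 6.67 to 6.88 under placebo at day 7, with 3 of 6 markers lower. Perirenal fat markers ran from 6.57 to 6.77 under anti-miR-182 and from 6.50 to 6.79 under placebo. Mesothelial markers, set beside Upk3b, ran from 6.05 to 6.19 under anti-miR-182 and from 6.003 to 6.13 under placebo at day 7, and from 6.22 to 6.25 under anti-miR-182 and from 6.10 to 6.19 under placebo at day 2. Of these 6 mesothelial markers 4 had a lower mean at day 7 than at day 2 under placebo, as did 72.0% of all genes. Of the 6 markers 1 passed, Bnc1, which rose by 0.38 ± 0.12 (SE, adjusted p = 0.0282 in limma), where 28.0% of all genes passed. Bnc1 also rose under anti-miR-182 (0.47 ± 0.12, SE, adjusted p = 0.0103 in limma), where the Upk3b difference was 0.03 ± 0.13 (SE, adjusted p = 0.878 in limma). The part of mesothelium in the Upk3b difference was not tested.

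**Figure D5:**
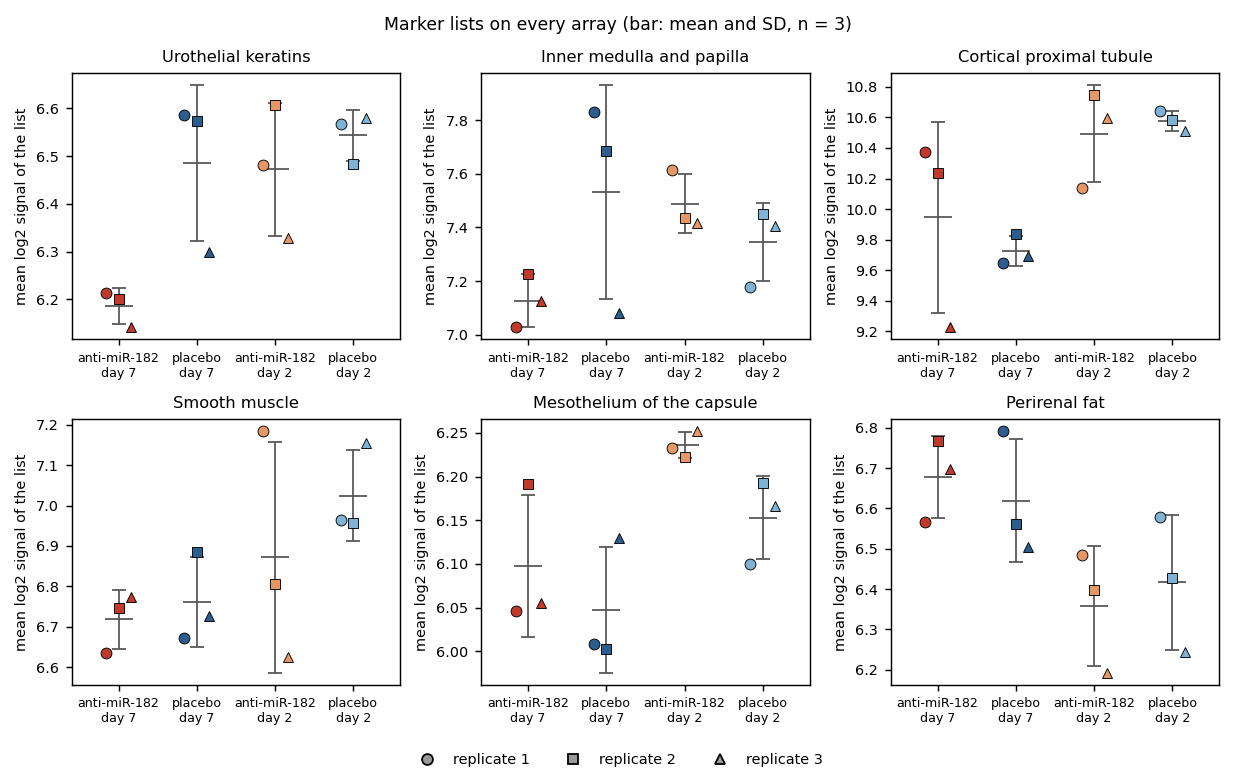
Mean log2 signal of 6 marker lists (vertical axes, 1 panel a list) on every array in the 4 groups (horizontal axes), with bars for the mean and SD. The inner medulla and papilla list reached 7.83 and 7.69 in placebo replicates 1 and 2 at day 7, against 7.08 in replicate 3.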

How the data were processed

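Per the labels, Trizol was used to isolate total RNA of kidney kept in RNAlater, and NuGEN kits amplified it and added biotin. The authors deposited 1 table of log2 values for 12 arrays, made with RMA per the submitters' processing notes (version not given in the sources used here). RMA corrects background, normalizes arrays and combines probes, which can shrink differences of dim genes. Values ran from 1.48 to 13.4. The 190 rows without values on the day 2 arrays had them on the day 7 arrays, so each day may have had its own normalization run, of which the labels say nothing. Groups were taken from the titles. Every array also carries a description of a biopsy at zero hours, although the titles give day 2 or day 7. No array was excluded, and the number of arrays limits the precision. Separate animals are known only from the codes, so p-values measure the spread between these samples, part of which may be technical. Within groups arrays correlated at 0.974 to 0.988, and a pair shared at most 41 identical values.

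Of 36685 rows 18511 had 1 symbol, 575 several and 17599 were not listed in the platform annotation. Single-symbol rows matched RefSeq names in 18472 cases and not in 39, and no symbol was updated. Those with complete values covered 18166 genes, with the row of highest mean used for the 291 genes with several. Group means of the 4 groups were fitted with limma 3.58.1 (lmFit and eBayes, R 4.3.3), and 5 comparisons were adjusted by Benjamini-Hochberg over all genes, with a threshold of 0.05. Correlations were computed with Python 3.11.15, numpy 2.4.6, pandas 2.3.3 and scipy 1.17.1, and figures with matplotlib 3.10.9. The fits and correlations were checked on simulated data.

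The members and lists were chosen with earlier results of these data known. All 5 uroplakins were named. Of each list, up to 3 genes with the smallest unadjusted p in a comparison and up to 5 past the threshold could be named, as could the 10 genes most like the uroplakin mean and the 3 most like each member. Gata3, Tp63, Psca, Fxyd4, Scnn1b and Bdkrb2 were named after their values were seen, as was Foxa1 at day 7. Alternatives were each day alone, eBayes with a trend or robust option, array weights, the dimmest 25% of genes left out, quantile normalization, median centring, the mean of a gene's rows, the animal number above or below 90 as a covariate, and each array left out. The animal numbers varied across 90 at day 7 alone, so for time differences that covariate is not independent of day.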

Additional observations from a re-analysis of the deposited data

How the results depend on the processing

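The 25 uroplakin differences gave 505 values under the alternatives, of which 476 kept their direction and side of the threshold. No uroplakin passed in either treatment comparison in 20 of 21 alternatives at day 7 and in all at day 2. With each array left out the count of uroplakins passing was 0 to 1 for treatment at day 7, 0 to 1 for day 7 against day 2 under anti-miR-182 and 0 to 2 under placebo, where all 12 arrays gave 0, 0 and 1. Leaving out placebo day 7 replicate 3 gave each upper value. The placebo count was 0 after a filter on the dimmest 25% of genes, which removes Upk3b, and 0 with the animal number as covariate (Upk3b 0.34, adjusted p = 0.14). Over its alternatives the Upk3b adjusted p ran from 0.0069 to 0.14. The count of correlated pairs, 3, was 1 with residuals from the 4 group means and 0 to 3 with each array left out: 0 without anti-miR-182 day 7 replicate 1 or 3 or any placebo day 7 array, and 1 without replicate 3 of either day 2 group.

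Signs turned for differences that did not pass with all 12 arrays. For day 7 against day 2 under anti-miR-182, Upk1b was 0.107 with quantile normalization, 0.114 with median centring and 0.304 with the animal number as covariate, Upk2 was 0.028, 0.030 and 0.022 in that order, and Upk3b was -0.104 with the covariate. Upk1a at day 2 was 0.073 with array weights, and the Upk3a interaction was 0.020 with quantile normalization. Each array left out gave -0.095 to 0.113 for Upk1a and -0.132 to 0.091 for Upk2 (treatment at day 2), -0.139 to 0.029 for the Upk3a interaction, -0.167 to 0.045 for Upk1b and -0.070 to 0.107 for Upk3b (time under anti-miR-182), and -0.107 to 0.189 for Upk2 (time under placebo). Upk1a over time under placebo ran from -0.020 to 0.496 and passed without placebo day 7 replicate 3. The cause was not tested.

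With 3 arrays a group, differences of the size seen for Upk2, Upk3a and Upk3b lie near the spread between animals. Arrays were compared as deposited, with no detection call. No paired analysis was possible because the labels give no replicate number shared between groups.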
